A study of Homo sapiens with 12 samples.

Results

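The genes described here are 10 members of the chemokine and cytokine system, chosen by name from a table of 60649 genes. They are the receptor CXCR4, its ligand CXCL12, the second CXCL12 receptor ACKR3, the neutrophil-attracting chemokines CXCL1, CXCL2, CXCL3, and CXCL8, the CC chemokines CCL2 and CCL20, and the cytokine IL6. CXCR4 was proposed because of its level in SK-UT-1B cells after the drug combination, so its values in that comparison are given as a description with no test. RNA sequencing covered 12 libraries of 2 lines labelled as uterine leiomyosarcoma (uLMS), a malignant tumor of uterine smooth muscle. Both lines are labelled wild type, and each stands for a single tumor, a uterine primary for SK-UT-1B and a metastasis in the vulva for SK-LMS-1. SK-UT-1B had 2 DMSO libraries (4-1 and 4-2) and 2 libraries (3-1 and 3-3) after MK-0752 given with gemcitabine and docetaxel, called the combination. SK-LMS-1 had 4 DMSO libraries (2-1 and 2-3, called set 2, and 4-1 and 4-2, called set 4), 2 after MK-0752 alone (2-2 and 2-3), and 2 after the combination (4-1 and 4-2). DMSO was the vehicle of the drugs, and libraries given DMSO alone are also called untreated or without drug. Every exposure lasted 72 h. Each treatment was given at its own IC30, the concentration that lowers viability by 30%, so the amount of each drug differed between the lines and between MK-0752 alone and the combination. MK-0752 is a gamma-secretase inhibitor, which prevents the cleavage that releases the active part of Notch receptors. Of the chemotherapy drugs, docetaxel stabilizes microtubules, and gemcitabine interferes with DNA synthesis as a nucleoside analog.

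Chemokines are small secreted proteins that direct cell movement through G protein-coupled receptors. CXCL12 binds CXCR4, which signals through inhibitory G proteins and is known for homing and metastasis, and also binds ACKR3, an atypical receptor that takes up the ligand and recruits arrestins. CXCL1, CXCL2, CXCL3, and CXCL8 act on CXCR1 and CXCR2 and attract neutrophils, CCL2 attracts monocytes through CCR2, CCL20 acts on CCR6, and IL6 signals through IL6R and IL6ST to STAT3. Many of these ligand genes are known targets of NF-kB, a transcription factor family activated by IL-1 and TNF.

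The libraries held 25250057 to 40709885 counts, and expression is given as CPM, the counts scaled to a common total, of the library size after TMM scaling, which corrects for differences in RNA composition. Of the smooth muscle markers, 7 of 10 had more than 10 counts in every SK-LMS-1 library and 4 of 10 in every SK-UT-1B library, with a summed level of 543 to 626 and 85 to 124 CPM. No SK-LMS-1 library held a count of DES, which encodes desmin. MYOCD, which encodes myocardin, had 0 counts in every SK-UT-1B library and in every SK-LMS-1 DMSO library. In SK-LMS-1 it averaged 0.587 CPM after MK-0752 and 0.18 CPM after the combination. None of 12 leukocyte markers exceeded 10 counts in every library of either line, and their sum was 1.14 to 6.45 CPM in SK-LMS-1 and at most 0.984 CPM in SK-UT-1B. SK-LMS-1 also expressed keratins, with a summed epithelial marker level of 163 to 264 CPM and no counts of CDH1, against at most 1.14 CPM in SK-UT-1B. Library pairs of 1 group often differed at low counts. Among genes with 30 to 40 counts in 1 library, the share with 0 counts in its partner ranged from 14.5% to 47.6% between groups. Because the labels do not say whether libraries of 1 group came from separate cultures, p-values measure only the spread between these libraries. In bulk RNA, fewer cells that express a gene and less RNA per cell cannot be told apart.

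To show what the neutrophil chemokine genes share, the 110 bases before the start of 4 of them are printed 5′ to 3′ in the direction of transcription, from RefSeq (GRCh38.p14), whose start can lie inside the outermost GENCODE gene model. Capitals mark matches on either strand to the NF-kB consensus (GGG, any 5 bases, then CC) or to GGAATTTCC, a sequence that overlaps the consensus in CXCL1, CXCL2, and CXCL3.
CXCL8, chr4:73740459-73740568, plus strand: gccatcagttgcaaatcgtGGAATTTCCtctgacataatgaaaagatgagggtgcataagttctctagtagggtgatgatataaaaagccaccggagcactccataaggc
CXCL1, chr4:73869283-73869392, plus strand: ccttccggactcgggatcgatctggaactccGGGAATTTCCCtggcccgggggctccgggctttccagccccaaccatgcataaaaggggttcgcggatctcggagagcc
CXCL3, chr4:74038690-74038799, minus strand: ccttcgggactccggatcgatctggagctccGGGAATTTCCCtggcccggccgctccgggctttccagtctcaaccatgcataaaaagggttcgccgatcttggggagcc
CXCL2, chr4:74099196-74099305, minus strand: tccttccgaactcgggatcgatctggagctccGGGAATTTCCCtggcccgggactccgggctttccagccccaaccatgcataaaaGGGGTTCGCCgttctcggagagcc

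GGAATTTCC lay in the 250 bases before the start of CXCL1, CXCL2, CXCL3, and CXCL8, 4 of the 8 members with a RefSeq promoter entry, and in 0.4% of all 27305 promoters of this length. The string was picked after these promoters had been read, because the 4 genes share it, so the shares are a description and nothing is read from their difference. The looser NF-kB consensus was found in 7 of the 8, all except CXCR4, and in 53.7% of all promoters. Over the 110 bases printed, CXCL1 was 93.7% identical to CXCL2 and 90.0% to CXCL3, and CXCL2 was 88.3% identical to CXCL3, whereas CXCL1 and CXCL8 were 45.3% identical. In the transcripts, 0.2% of the 75-base stretches of CXCL1, 7.6% of those of CXCL2, and 4.6% of those of CXCL3 also occurred, base for base, in another of these genes. Reads from such stretches could not be assigned to 1 gene, so the levels of CXCL2 and CXCL3 carry that uncertainty. These matches describe letters in a window and do not show binding.

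The same stretch of IL6 held 2 overlapping matches to the NF-kB consensus, 1 on each strand, which the capitals mark together, while that of CXCR4 is shown because it differs in kind, with no match to it. In CXCR4, capitals mark TATAAA (the TATA box) and GGGCGG (the GC box), each on either strand.
IL6, chr7:22727090-22727199, plus strand: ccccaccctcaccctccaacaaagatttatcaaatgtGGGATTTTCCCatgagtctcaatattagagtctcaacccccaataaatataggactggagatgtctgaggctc
CXCR4, chr2:136118150-136118259, minus strand: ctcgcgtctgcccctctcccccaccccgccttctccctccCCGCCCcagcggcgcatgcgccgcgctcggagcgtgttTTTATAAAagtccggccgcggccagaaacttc

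In the 250 bases before the start, TATAAA was found in CXCR4, CXCL8, and CCL20 (11.2% of all promoters), and GGGCGG in CXCR4, CXCL12, CXCL1, and CXCL3 (42.2%). TGGGAA, the core recognized by RBPJ, the DNA-binding partner of Notch, was found on either strand in CXCR4, CCL20, and IL6 (21.2%).

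The first question was how the receptors and ligand of the CXCL12 axis were expressed with and without the combination. CXCR4 (ENSG00000121966.7, chromosome 2 of hg38, 136114349 to 136119177, minus strand) had 13 and 0 counts in the SK-UT-1B DMSO libraries and 1426 and 519 after the combination. Its level was 0.225 ± 0.318 CPM after DMSO and 28.7 ± 14.5 CPM after the combination (SD, n = 2 each), a ratio of means of 128, which was 63.8 without DMSO 4-2 and 81.9 without combination library 3-1. Without DMSO 4-1, the remaining DMSO library held 0 counts and no ratio can be given. The treated libraries carry the first number 3 and the DMSO libraries the first number 4, so any difference between these numbers and the treatment cannot be told apart. The treated libraries do not overlap the DMSO libraries, yet they differ from each other, at 39.0 and 18.4 CPM. In the DMSO group, of genes with 30 to 40 counts in 1 library, 32.2% had 0 counts in its partner, so the pair of 13 and 0 is not unusual.

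ACKR3 (ENSG00000144476.6, chromosome 2, 236567787 to 236582354, plus strand), the scavenging receptor of CXCL12, was detected in the same treated libraries. It had 34 and 37 counts after the combination in SK-UT-1B, or 0.929 and 1.31 CPM, and 0 counts in the other 10 libraries. Against a floor of 3 counts per DMSO library, it was at least 12.2-fold higher. Both receptors were therefore higher in every treated SK-UT-1B library than in every DMSO library of that line, in a comparison in which 32.1% of all 21114 tested genes did not overlap between groups (16.7% as higher and 15.4% as lower) and 0.559% were called (0.393% as higher and 0.166% as lower). To be called, a gene needed an adjusted p (Benjamini-Hochberg, over all genes) below 0.05 and a log2 fold change (log2FC) of 1 or more in size. The members were proposed with that comparison in view, so nothing is read from the count. In the same libraries, the leukocyte marker sum was 0.213 to 0.984 CPM after the combination and at most 0.0265 CPM after DMSO, and the endothelial sum at most 0.0273 CPM and 1.22 to 2.28 CPM. Their part in the receptor levels was not tested.

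The ligand CXCL12 (ENSG00000107562.16, chromosome 10, 44370165 to 44386493, minus strand) was not counted in any of the 4 SK-UT-1B libraries. In SK-LMS-1, DMSO set 2 held 322 and 295 counts and set 4 held 198 and 528. MK-0752 libraries held 666 and 834, and combination libraries 571 and 313. CXCR4 and its ligand were thus detected together in SK-LMS-1, while the SK-UT-1B libraries with the highest CXCR4 held no CXCL12 counts, with a floor of 0.082 and 0.106 CPM. The SK-LMS-1 libraries held no ACKR3 counts.

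**Figure D1:**
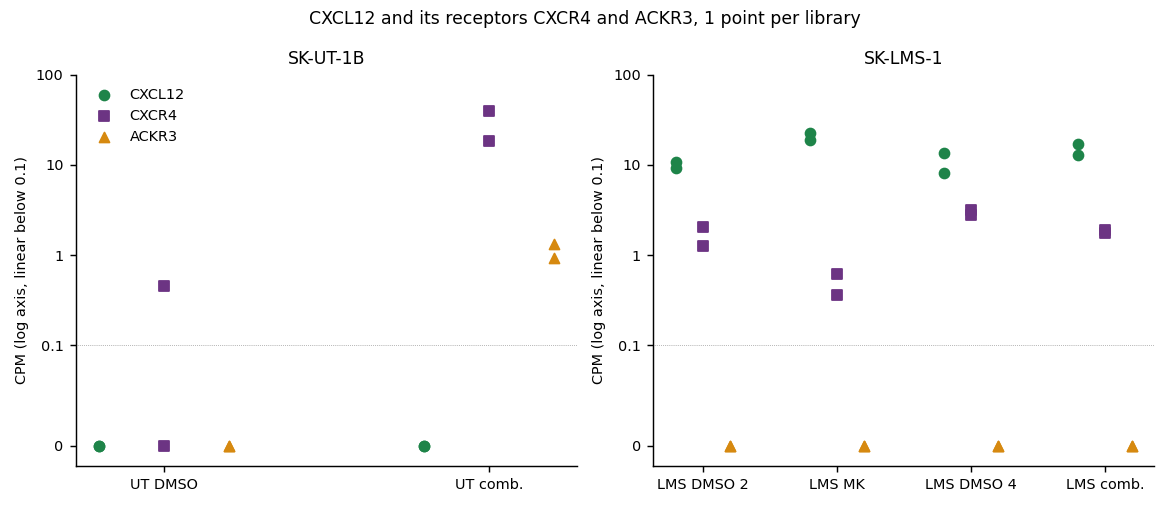
CPM of CXCL12 (circles), CXCR4 (squares), and ACKR3 (triangles) in each library of SK-UT-1B (left) and SK-LMS-1 (right), on a log axis that is linear below 0.1 CPM, with 1 point per library. In SK-UT-1B, CXCL12 stays at 0 and CXCR4 reaches 39.0 and 18.4 CPM after the combination, whereas in SK-LMS-1 CXCL12 lies above CXCR4 in all 8 libraries and ACKR3 stays at 0.

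CXCR4 was detected in every SK-LMS-1 library. DMSO set 2 held 44 and 56 counts of it and set 4 held 68 and 121, against 13 and 23 with MK-0752 and 58 and 46 with the combination. Without drug, the SK-LMS-1 level was 2.30 ± 0.83 CPM (SD, n = 4), against 0.225 ± 0.318 CPM (SD, n = 2) in SK-UT-1B, and all 4 SK-LMS-1 libraries lay above both SK-UT-1B libraries. These SK-UT-1B libraries belong to the comparison for which CXCR4 was proposed, so the levels are a description with no test. After the combination the order of the lines was the opposite, and SK-LMS-1 had a CXCR4 level 15.8-fold below that of SK-UT-1B, given as a description.

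The genes whose log2(CPM + 0.5) over the 12 libraries was most like that of CXCR4, among 13522 genes with a mean of at least 50 counts, were ZNF516 (Pearson r = 0.86), AAR2 (0.80), C7orf26 (0.80), DYNLL2 (0.79), and TNFRSF10B (0.78). These points share the split between the lines and the 2 treated SK-UT-1B libraries. The differences in these genes were smaller than in CXCR4. ZNF516 averaged 40.8 CPM in SK-UT-1B after DMSO, 70.8 CPM after the combination, and 49.3 CPM in SK-LMS-1. TNFRSF10B, a TRAIL death receptor, averaged 81.4, 133, and 70.9 CPM in the same groups, so that, unlike CXCR4, its level in SK-LMS-1 was below that in untreated SK-UT-1B.

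The next question was which inflammatory ligands each line expressed. CXCL8, which encodes interleukin-8 (ENSG00000169429.11, chromosome 4, 73740519 to 73743716, plus strand), had 869 to 1706 counts in the 8 SK-LMS-1 libraries and 0 in every SK-UT-1B library. Its level after DMSO in SK-LMS-1 was 43.3 ± 5.84 CPM (SD, n = 4), at least 472-fold higher than in SK-UT-1B. CXCL1 (ENSG00000163739.5, chromosome 4, 73869393 to 73871308, plus strand), a growth-regulated neutrophil attractant, had 142 to 307 counts in SK-LMS-1 and 0 in SK-UT-1B, and was at least 90.4-fold higher after DMSO. Neither gene gave a single count in SK-UT-1B.

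CXCL2 (ENSG00000081041.9, chromosome 4, 74097040 to 74099196, minus strand) had 21 to 223 counts in SK-LMS-1 and was at least 38.4-fold higher there. CXCL3 (ENSG00000163734.4, chromosome 4, 74036589 to 74038807, minus strand) had 37 to 120 counts and was at least 32.5-fold higher. Both had 0 counts in SK-UT-1B. CXCL2 was uneven among the untreated SK-LMS-1 libraries, at 6.39 and 3.80 CPM in set 2 and 3.37 and 0.544 CPM in set 4.

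CCL2, the monocyte attractant (ENSG00000108691.9, chromosome 17, 34255274 to 34257208, plus strand), had 373 to 954 counts in SK-LMS-1 and 0 in SK-UT-1B, and was at least 265-fold higher after DMSO. CXCL12 was at least 113-fold higher. IL6 (ENSG00000136244.12, chromosome 7, 22725884 to 22732002, plus strand) had 44 to 112 counts and was at least 30-fold higher. IL6 overlaps STEAP1B and IL6-AS1 on the opposite strand, and although the kit preserves strand, whether the counting used it is not stated, so its counts are uncertain. CCL20 (ENSG00000115009.13, chromosome 2, 227805739 to 227817564, plus strand) had 0 counts in all 12 libraries.

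**Figure D2:**
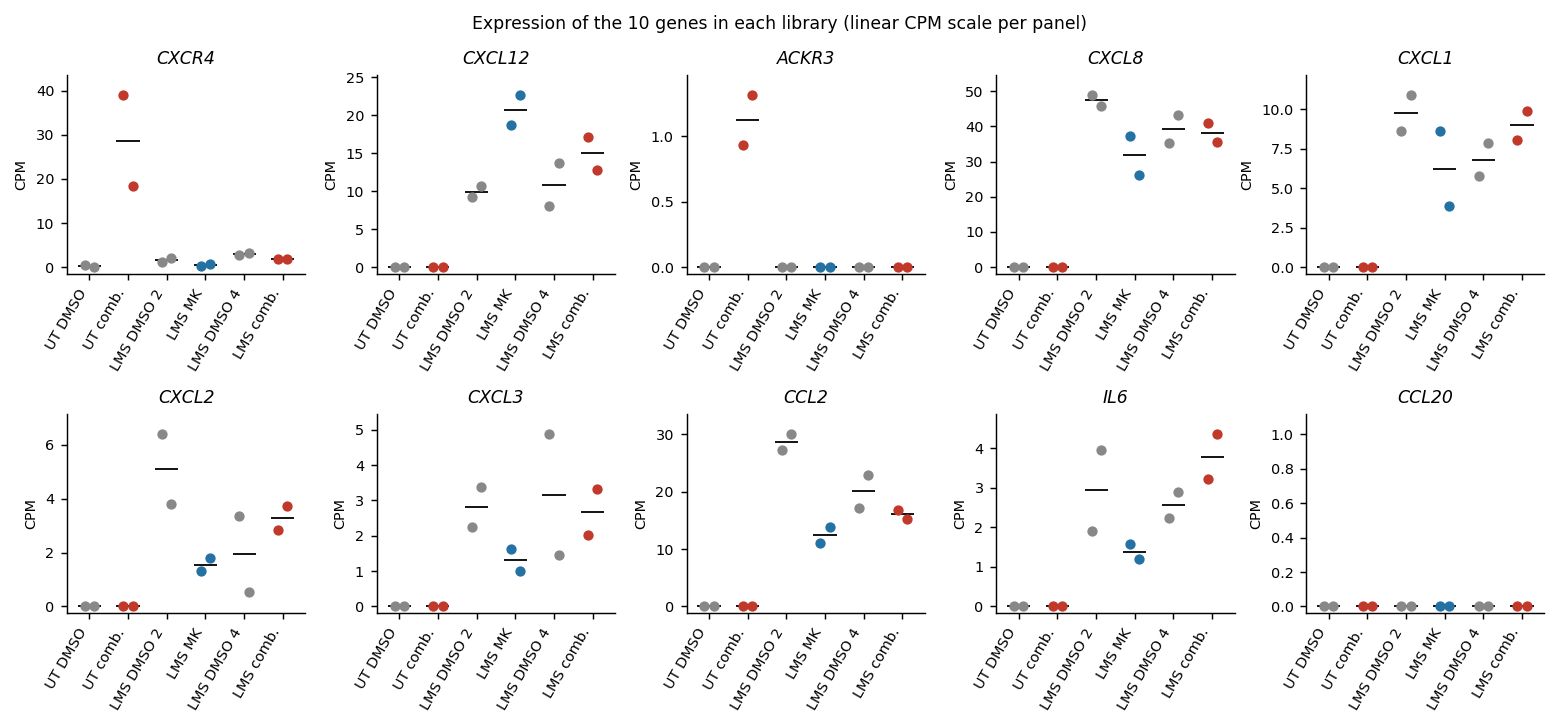
CPM of each gene in each library (points) with the group mean (line), on a linear axis of its own per panel; UT is SK-UT-1B, LMS is SK-LMS-1, comb. is the combination, MK is MK-0752, and 2 and 4 are the DMSO sets. CXCR4 and ACKR3 stand out in the SK-UT-1B combination libraries, 7 ligands have counts only in SK-LMS-1, and CCL20 is at 0 throughout.

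In this comparison of untreated lines, the 7 ligands at 0 in SK-UT-1B were called higher in SK-LMS-1. Of all genes tested, 31.1% were called, with 17.0% higher and 14.1% lower in SK-LMS-1. These 7 genes could pass the filter on low counts only through SK-LMS-1, so their count says nothing beyond their levels and no p-value is given for them or for any gene at 0 in 1 of the groups compared. After the combination, the same 7 ligands were called higher in SK-LMS-1, where 25.4% of all genes were called (15.6% as higher and 9.88% as lower). They were again at 0 in SK-UT-1B and could pass the filter only through SK-LMS-1, so nothing is read from this count. For ACKR3, the SK-LMS-1 level was lower by at least 10.5-fold, given as a description, since the SK-UT-1B combination libraries are those for which the members were proposed. The lower bounds for the ligands after the combination were 406-fold for CXCL8, 170-fold for CCL2, 159-fold for CXCL12, 95.4-fold for CXCL1, 40.1-fold for IL6, 35.0-fold for CXCL2, and 28.3-fold for CXCL3. The keratin and smooth muscle marker sums also differed between the lines. In untreated SK-LMS-1, the leukocyte marker CD14 was at least 31.6-fold higher and the endothelial marker PECAM1 at least 40.1-fold higher. No leukocyte or endothelial marker was called lower. The part of all these markers in the ligand differences was not tested.

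Per kb of exon, CXCL8 was the most abundant member in untreated SK-LMS-1, with a mean level of 16.7 CPM per kb (range 13.6 to 18.9, n = 4). CCL2 followed at 12.6 CPM per kb (8.89 to 15.5) and CXCL1 at 6.09 CPM per kb (4.23 to 8.01). Lower levels were found for CXCL2 (2.52 CPM per kb), CXCL12 (1.69), CXCL3 (1.34), CXCR4 (0.791), and IL6 (0.637). In this order, only CCL2 and CXCL1 were neighbors whose 4 libraries did not overlap.

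To place these levels in their chromosomal context, neighboring genes were examined, since CXCL8, CXCL1, CXCL3, and CXCL2 lie within 356.5 kb of each other on chromosome 4 together with other chemokine genes. CXCL6, 96.1 kb from the start of CXCL8, had 2 to 178 counts in SK-LMS-1. The DMSO libraries held 2, 104, 5, and 7, those with MK-0752 178 and 158, and those with the combination 62 and 28. CXCL6 was not called (edgeR) after either treatment. Its MK-0752 libraries lay above all 4 DMSO libraries, where 17.1% of all genes did not overlap (9.45% as higher). CXCL5, 255.1 kb away, had 0 to 91 counts. The platelet chemokine genes PF4 and PPBP, which lie between CXCL1 and CXCL5, had 0 counts in every library. None of the cluster genes named here had a count in SK-UT-1B.

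**Figure D3:**
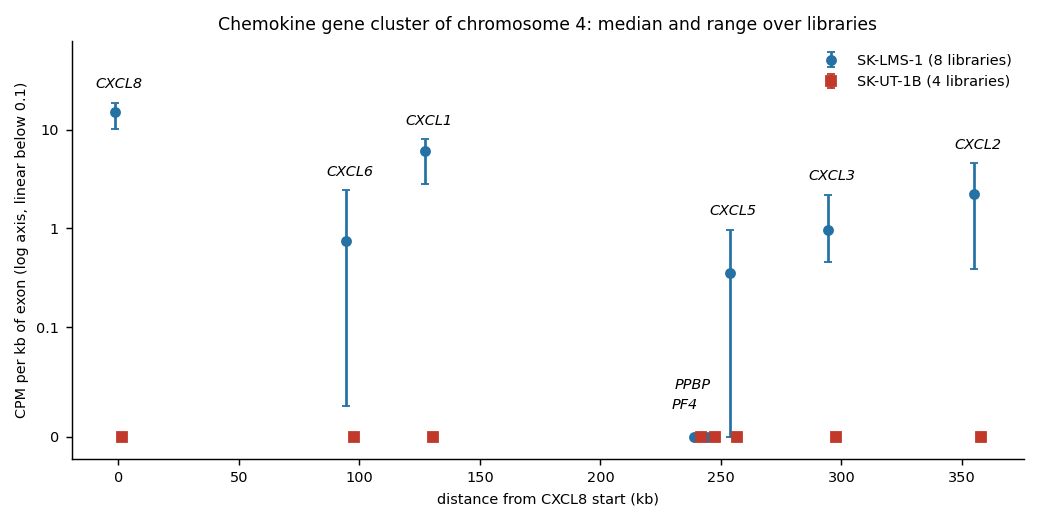
CPM per kb of exon (log axis, linear below 0.1) against the distance from the start of CXCL8 in kb for 8 chemokine genes of chromosome 4, as the median (point) and range (bar) over the 8 SK-LMS-1 libraries (blue) and 4 SK-UT-1B libraries (red), drawn 1.5 kb to either side of the true position. CXCL8 and CXCL1 lie highest in SK-LMS-1, PF4 and PPBP are at 0, and every SK-UT-1B value is 0.

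The genes most like CXCL8 over the 12 libraries were HTR1F, DKK1, ADGRG6, LOX, and SERPINB7 (Pearson r from 0.9992 to 0.9996). DKK1 encodes a secreted Wnt inhibitor and LOX a collagen crosslinking enzyme. All 5 were near 0 in SK-UT-1B and averaged from 86.0 CPM (HTR1F) to 398 CPM (SERPINB7) in SK-LMS-1, so these correlations rest on the split between the lines.

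To determine whether MK-0752 alone altered these genes, the treated SK-LMS-1 libraries were compared with DMSO set 2, which shares their first library number. None of the 8 members with counts was called (edgeR), where 0.251% of all genes were (0.0568% as higher and 0.194% as lower), and DESeq2 also called 0. Unadjusted p-values were under 0.05 for 2 members, CCL2 and CXCL12. CCL2 had 27.3 and 29.96 CPM in DMSO set 2, 17.2 and 22.9 CPM in set 4, and 11.02 and 13.8 CPM after MK-0752. It was lower in both treated libraries than in all 4 DMSO libraries, with a log2FC of -1.20 (SE 0.39, 95% interval -2.02 to -0.39, edgeR unadjusted p = 0.0067616, adjusted p = 0.39967).

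CXCL12 had the opposite direction. Its levels were 9.23 and 10.7 CPM in DMSO set 2, 8.03 and 13.7 CPM in set 4, and 18.7 and 22.7 CPM after MK-0752, above all 4 DMSO libraries. The log2FC was 1.05 (SE 0.48, 95% interval 0.06 to 2.05, edgeR unadjusted p = 0.040734, adjusted p = 0.75597). CXCR4, its receptor, had 1.26 and 2.03 CPM in set 2, 2.76 and 3.14 CPM in set 4, and 0.365 and 0.625 CPM after MK-0752. Its treated libraries lay below all 4 DMSO libraries, with a log2FC of -1.72 (SE 0.90, 95% interval -3.60 to 0.16, edgeR adjusted p = 0.80578).

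IL6 was also lower in both treated libraries, at 1.57 and 1.20 CPM, than in the 4 DMSO libraries, at 1.92 to 3.95 CPM, with a log2FC of -1.08 (95% interval -3.87 to 1.71). CXCL8 had 37.2 and 26.3 CPM after MK-0752 against 48.9 and 45.9 CPM in set 2 and 35.3 and 43.2 CPM in set 4, so it separated from set 2 but not from set 4. The log2FC of CXCL8 was -0.58 (95% interval -1.18 to 0.03), the narrowest interval of the members. CXCL1, CXCL2, and CXCL3 had log2FC values of -0.65, -1.71, and -1.09, each with an interval that included 0.

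All 8 members separated from DMSO set 2, 7 with lower and CXCL12 with higher levels after MK-0752, where 34.5% of all genes did not overlap (16.9% as higher and 17.5% as lower). Against all 4 DMSO libraries, CXCR4, CCL2, and IL6 were lower and CXCL12 higher, where 17.1% of all genes did not overlap (9.45% as higher and 7.70% as lower). The median log2FC of the members was -1.08, and that of all genes tested was 0. The epithelial marker sum was 163 to 178 CPM after MK-0752 and 214 to 257 CPM in set 2, and the leukocyte sum was 2.83 to 3.84 and 3.07 to 6.45 CPM. Their part in the member values was not tested.

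The combination was compared with DMSO set 4 in SK-LMS-1. None of the 8 members was called, 0 had an unadjusted p under 0.05 (edgeR), and DESeq2 called 0, where edgeR called 0.0237% of all genes (0.0142% as higher and 0.00947% as lower). CXCR4 had 1.74 and 1.89 CPM after the combination against 2.76 and 3.14 CPM, with a log2FC of -0.70 (SE 0.85, 95% interval -2.49 to 1.09). In SK-UT-1B the same contrast gave a CXCR4 ratio of 128, and the difference between the lines was not tested because it holds the comparison for which CXCR4 was proposed. CCL2 had 16.8 and 15.3 CPM, below all 4 DMSO libraries, with a log2FC of -0.32 (95% interval -1.13 to 0.49).

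CXCL1 and IL6 were higher in both combination libraries than in set 4. CXCL1 had 8.08 and 9.89 CPM against 5.76 and 7.85 CPM, and IL6 had 3.21 and 4.35 CPM against 2.23 and 2.90 CPM. The log2FC was 0.40 for CXCL1 (95% interval -1.04 to 1.84) and 0.56 for IL6 (95% interval -2.20 to 3.32). CXCL12 had 17.1 and 12.8 CPM against 8.03 and 13.7 CPM (log2FC 0.46), and CXCL8 had 40.9 and 35.7 CPM against 35.3 and 43.2 CPM (log2FC -0.04, 95% interval -0.64 to 0.56), both overlapping. In all, 4 members separated from set 4, where 32.4% of all genes did (21.0% as higher and 11.4% as lower), and CCL2 was the only one that also separated from all 4 DMSO libraries, where 11.4% did (3.36% as lower). The leukocyte marker sum was 1.14 to 1.48 CPM after the combination and 5.42 to 5.48 CPM in set 4, and its part in these values was not tested.

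The SK-LMS-1 DMSO libraries gave a measure of differences without drug, although the DMSO volume given to each set is not stated. Between set 4 and set 2, edgeR called 0 members and 0 of all genes (0%), while 1197 genes, none a member, had an unadjusted p under 0.05 and DESeq2 called 30 genes and 0 members. Yet 5 members separated, CXCR4 higher and CXCL1, CXCL2, CXCL8, and CCL2 lower in set 4, where 29.5% of all genes did (17.5% as lower). The log2FC between the sets was 0.84 for CXCR4, -1.38 for CXCL2, and -0.51 for CCL2. For CXCL2, the log2FC between untreated sets ranged from -3.22 to -0.62 when 1 library was left out.

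The effect of MK-0752 was then compared with that of the combination, each against its own DMSO set. No member passed the test of this difference (edgeR called 0 of 8, 0 had an unadjusted p under 0.05, and DESeq2 called 0), where 0.0379% of all genes were called (0.00474% as higher and 0.0332% as lower). The difference in log2FC was largest in size for CXCL2, at -2.46 (95% interval -6.37 to 1.44). For IL6 it was -1.64 (95% interval -5.56 to 2.28), and for CXCL1 -1.05 (95% interval -3.09 to 0.99). The difference was -1.02 for CXCR4 (95% interval -3.58 to 1.54), -0.89 for CCL2 (95% interval -2.03 to 0.26), and 0.59 for CXCL12 (95% interval -0.81 to 1.98). CXCL3 and CXCL8 had differences of -0.85 and -0.54, each with an interval that included 0. These intervals leave room for differences of more than 1 log2 unit in either direction for CXCR4, so the effects are not shown to be alike.

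**Figure D4:**
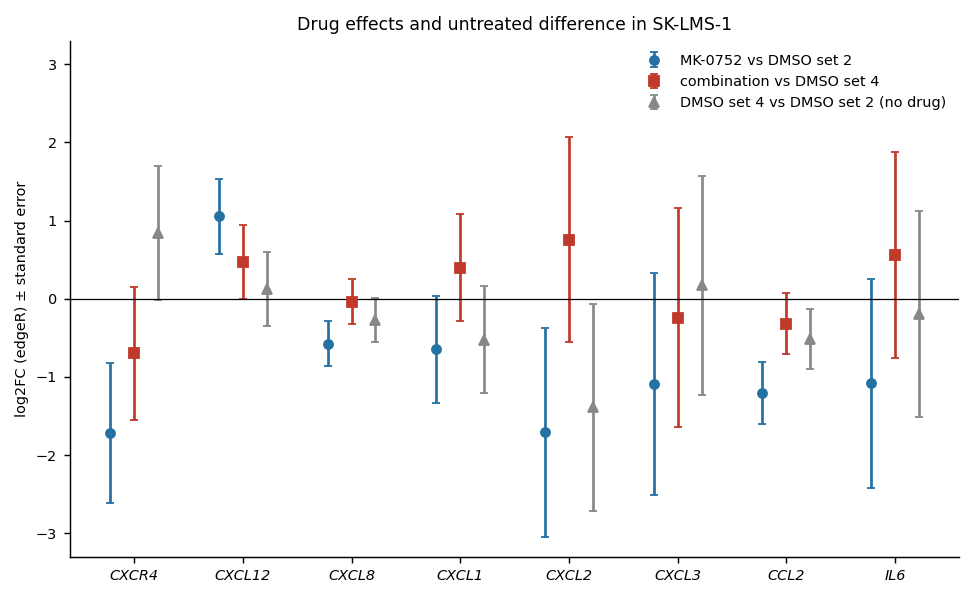
edgeR log2FC ± standard error of 8 genes in SK-LMS-1 after MK-0752 relative to DMSO set 2 (circles), after the combination relative to DMSO set 4 (squares), and between the DMSO sets (triangles). After MK-0752, 7 of 8 genes lie below 0 and CXCL12 lies at 1.05, whereas the untreated difference is -1.38 for CXCL2 and 0.84 for CXCR4.

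To place the members in their pathway, 5 lists of related genes were counted in the same fit. Of 31 other chemokines, 19 had at most 3 counts in every library. Between the untreated lines, 10 were tested, of which CXCL6 was called higher in SK-LMS-1 and CCL28, CXCL14, and CXCL16 were called lower, a share near that of all genes (31.1% called, 17.0% as higher and 14.1% as lower). Of the list, 8 genes had at most 3 counts in every SK-UT-1B library but more in SK-LMS-1, and could pass the filter only through SK-LMS-1. CXCL6 was at least 11.5-fold higher, a bound that rests on SK-LMS-1 DMSO 2-3, with 104 counts against 2, 5, and 7 in the other DMSO libraries. Its call was lost without that library, and also without SK-UT-1B DMSO 4-1 or 4-2. CXCL16, the transmembrane ligand of CXCR6, averaged 15.0 CPM in SK-UT-1B and 1.96 CPM in SK-LMS-1 (log2FC -2.98, SE 0.43, adjusted p = 1.1732e-05). CXCL14 had 68 and 125 counts in the SK-UT-1B DMSO libraries and 0 in SK-LMS-1, at least 28.8-fold lower. It could pass the filter only through SK-UT-1B, whose combination libraries held 0 and 19 counts of it.

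Of 21 other chemokine receptors, 8 were tested between the untreated lines, with CCR1 and CCRL2 called higher and CCR7 lower in SK-LMS-1, which is near the 31.1% called of all genes. Each of the 3 was at 0 in 1 line and could pass the filter only through the other. CCRL2, an atypical receptor that binds chemerin, was at least 181-fold higher, and CCR1, a receptor of inflammatory CC chemokines, at least 31.2-fold higher. CCR7, the receptor that guides cells to lymph nodes, averaged 2.88 CPM after DMSO and 9.21 CPM after the combination in SK-UT-1B and was at least 29.2-fold lower in untreated SK-LMS-1.

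Among 20 genes of CXCR4 signaling and trafficking, 19 were tested, with 7 called higher and 3 lower in untreated SK-LMS-1, beside 17.0% and 14.1% of all genes. Of those called higher, DPP4 and CD74 could pass the filter only through SK-LMS-1, so the direction of the count is partly fixed. DPP4, the peptidase that inactivates CXCL12, averaged 25.3 CPM and was at least 276-fold higher. CD74, a receptor of the CXCR4 ligand MIF, averaged 8.09 and 0.186 CPM, with a log2FC of 5.34 (SE 1.04). The log2FC was 4.38 without SK-UT-1B DMSO 4-1, and without 4-2 the remaining library held 0 counts. No p-value is given for CD74, because it could pass the filter only through SK-LMS-1. EPAS1, a hypoxia-inducible factor, averaged 254 and 2.05 CPM (log2FC 7.01, adjusted p = 0.00017055), with 8.85 without SK-UT-1B DMSO 4-1 and 6.15 without 4-2. ARRB1, an arrestin that desensitizes receptors, averaged 1.04 CPM in SK-LMS-1 and 68.5 CPM in SK-UT-1B (log2FC -7.01, adjusted p = 0.00014617). Its counts in SK-LMS-1 DMSO set 4 were 0 and 9. Without DMSO 4-2 that set was at 0, so the fitted value of -9.62 is no bound.

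Of 18 NF-kB subunits and feedback genes, 8 were called higher and 2 lower in untreated SK-LMS-1, beside 17.0% and 14.1% of all genes. The main transactivating subunit RELA was similar in level, at 140 ± 17.4 CPM (SD, n = 4) and 160 ± 10.8 CPM (SD, n = 2), with a log2FC of -0.19 (adjusted p = 0.29748). NFKBIA, which encodes the inhibitor IkB-alpha, averaged 47.4 and 33.2 CPM (log2FC 0.51, adjusted p = 0.085368). Among the genes called, TNFAIP3, which encodes the deubiquitinase A20, averaged 30.04 and 5.31 CPM (log2FC 2.50, SE 0.36, adjusted p = 8.9588e-06). NFKBIZ averaged 57.4 and 3.31 CPM (log2FC 4.10), ZFP36, which encodes an RNA decay factor of cytokine messages, 71.6 and 4.44 CPM (log2FC 3.99), and BIRC3 42.6 and 0.597 CPM (log2FC 6.06). Without SK-UT-1B DMSO 4-1, the log2FC was 3.23 for TNFAIP3, 3.46 for NFKBIZ, and 5.11 for BIRC3, and without 4-2 it was 2.00 for TNFAIP3 and 5.20 for NFKBIZ. For BIRC3, the remaining library held 0 counts, and the fitted value is no bound. NFKB1 and REL were the 2 called lower.

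Of 26 interleukins and their receptors, 23 were tested, with 14 called higher and 0 lower in untreated SK-LMS-1, where 17.0% of all genes were higher and 14.1% lower. Of the list, 6 genes had at most 3 counts in every SK-UT-1B library but more in SK-LMS-1, so these could pass the filter only through SK-LMS-1 and the direction of the count is partly fixed. SOCS3, the feedback inhibitor of IL6 signaling, averaged 35.6 CPM with 0 counts in SK-UT-1B, at least 388-fold higher. IL33, an alarmin of the IL-1 family, was at least 232-fold higher, IL1B at least 67.8-fold, and CSF3, the granulocyte colony-stimulating factor, at least 48.6-fold. The median log2FC was 0.84 for the CXCR4 signaling list and 0.97 for the NF-kB list, and that of all genes was 0. No median is given for the other lists, in which more genes were at or near 0 in 1 line.

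The same lists were counted between the lines after the combination, where 25.4% of all genes were called, 15.6% as higher and 9.88% as lower in SK-LMS-1. Genes at 0 in 1 line limit these counts in the way described for the untreated lines. Of the other chemokines tested, CXCL6 was higher in SK-LMS-1 (at least 16.0-fold), and CCL28 and CXCL16 were lower (log2FC -2.83 and -3.28). Among the receptors, CCR1 and CCRL2 were higher (at least 28.5-fold and 166-fold), and CCR7 was at least 86.4-fold lower. CXCR4 signaling genes counted 9 higher and 3 lower of 20, with CD74 at least 68.1-fold higher, DPP4 and EPAS1 at a log2FC of 5.02 and 6.94, and ARRB1 at -6.66. The SK-UT-1B combination libraries held 0 and 54 counts of DPP4, and those of SK-LMS-1 held 1 and 38 of ARRB1. The log2FC of each thus depends on 1 library of the lower group, and its size is uncertain. NF-kB genes counted 9 higher and 1 lower of 18, with BIRC3, NFKBIZ, ZFP36, and TNFAIP3 at 5.10, 3.96, 3.64, and 2.16. RELA (log2FC -0.56, adjusted p = 0.013282) and NFKBIA (log2FC 0.70, adjusted p = 0.047539) were below the size needed for a call. Interleukin genes counted 13 higher and 0 lower of 22, with PTGS2, which encodes the prostaglandin enzyme COX-2, at 8.17, and SOCS3, CSF3, and IL1B at least 473-fold, 28.3-fold, and 25.9-fold higher. PTGS2 averaged 0.178 ± 0.251 CPM (SD, n = 2) in the SK-UT-1B combination libraries, close to the floor, so the size of its log2FC is uncertain.

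The lists were tested for drug effects in SK-LMS-1 only. After MK-0752, 2 CXCR4 signaling genes, 1 NF-kB gene, and 4 interleukin genes had an unadjusted p under 0.05, beside 1354 of all 21114 genes, and 1 gene of the 5 lists was called. This was LIF, an IL6-family cytokine, which fell from 84.9 ± 11.1 to 36.9 ± 10.5 CPM (SD, n = 2 each). Its libraries had 77.0 and 92.7 CPM in DMSO set 2, 106 and 104 CPM in set 4, and 29.5 and 44.3 CPM after MK-0752, with a log2FC of -1.20 (SE 0.24, edgeR adjusted p = 0.028264). LIF overlaps LIF-AS1 and LIF-AS2 on the opposite strand. Its call was lost without MK-0752 library 2-2 (log2FC -0.94, adjusted p = 0.24146) and among genes with a mean of at least 50 counts (log2FC -1.18, adjusted p = 0.065695). RELA, NFKBIA, and TNFAIP3 had log2FC values of -0.24, 0.36, and -0.40 with MK-0752, compared with 0.14, 0.06, and -0.28 for the combination, and edgeR called none of these. After the combination in SK-LMS-1, edgeR and DESeq2 called 0 genes of the 5 lists, and 2 NF-kB genes and 1 interleukin gene had an unadjusted p under 0.05, beside 914 of all genes. Between the DMSO sets both tools called 0, with unadjusted p under 0.05 for 1 receptor, 3 CXCR4 signaling genes, and 1 NF-kB gene, beside 1197 of all genes. Between the MK-0752 and combination effects both called 0, with 2 CXCR4 signaling genes, 1 NF-kB gene, and 2 interleukin genes at an unadjusted p under 0.05, beside 1094 of all genes.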

How the data were processed

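Total RNA libraries were prepared with a stranded kit after ribosomal RNA depletion. Per the labels and methods, the authors trimmed reads with Trim Galore 0.3.7, aligned them to hg38 with STAR 2.7.9a, and deposited raw counts per gene, not normalized. Genes were matched by Ensembl identifier without its version, and 60507 of 60649 are in GENCODE v44, used for coordinates, overlaps, and exon lengths. Of 60649 genes, 30598 had 0 counts in every library.

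Counts were analysed with edgeR 4.0.16 in R 4.3.3 (TMM, filterByExpr, robust quasi-likelihood F test) over all 12 libraries in 6 groups of 2, and p-values were adjusted by Benjamini-Hochberg over 21114 genes. Groups follow the labels, but the SK-LMS-1 columns of the table do not name the line and were taken as SK-LMS-1 because the other columns carry the SK-UT-1B name. SK-LMS-1 controls were matched by the first number of the library name, whose meaning is not stated, while the SK-UT-1B combination (first number 3) had DMSO libraries of first number 4. Fold bounds use a floor of 3 counts per library, which covers counting error only. The fit was tested on data simulated for the MK-0752 comparison, with a log2FC of 2 in 200 of 19587 genes. It recovered 74% of the changed genes, and 7.5% of its calls were genes not changed. Between unchanged groups it called 5 genes. The 10 members, the lists, and the tests were chosen with earlier results of these data known. All members are named. From each list and tested comparison, called genes were named, at most the 4 with the largest absolute log2FC, plus RELA, NFKBIA, and TNFAIP3. NFKB1 and REL were also named, as the NF-kB genes called lower between the untreated lines. CXCL5, PF4, and PPBP were given as neighbors in the chromosome 4 cluster, chosen after their values were seen. Alternatives were DESeq2 1.42.0, its size factors in edgeR, other filters, other library sets, a replicate block, and leaving out each library. Those for the lists were added after the data were seen.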

Additional observations from a re-analysis of the deposited data

Results flagged for a closer look

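In all, 3 members separated from their DMSO libraries in opposite directions in a pair of comparisons. Of all genes, 32.1% did not overlap for the SK-UT-1B combination, 34.5% for MK-0752, and 32.4% for the SK-LMS-1 combination. The share that separated in opposite directions is not given, so nothing is read from the count of members. CXCR4 was 128-fold higher after the combination in SK-UT-1B and 1.62-fold lower after the combination in SK-LMS-1, as ratios of mean CPM, and the difference between the lines was not tested. The former ratio was 63.8 without DMSO 4-2 and 81.9 without combination library 3-1. In SK-LMS-1 without drug, CXCR4 was 1.79-fold higher in set 4 than in set 2, and its combination libraries lay within the range of the 4 DMSO libraries. CXCL1 was 1.57-fold lower after MK-0752 and 1.32-fold higher after the combination in SK-LMS-1, and IL6 was 2.12-fold lower and 1.47-fold higher. These comparisons use different DMSO sets, and without drug CXCL1 was 1.44-fold lower in set 4 than in set 2. Against all 4 DMSO libraries, CXCL1 overlapped after both treatments and IL6 after the combination. When 1 library was left out, the log2FC after MK-0752 ranged from -1.34 to -0.18 for CXCL1 and from -1.51 to -0.49 for IL6. For CXCL1 and IL6, the edgeR test of the difference between the drug effects gave an adjusted p of 0.99989 in each case, with differences in log2FC of -1.05 and -1.64. No level of a member in the 4 untreated SK-LMS-1 libraries stood apart from the other 3 by Dixon's criterion.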

How the results depend on the processing

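The number of members called kept within 1.5 times of its value in all 63 recomputations. Of 497 recomputed member differences, 486 kept direction and side of the threshold and 9 reversed. The other 2, of CXCR4 and ACKR3 between the lines, rest on libraries from which the members were proposed and are not read. Between the lines, the direction could not change for the 7 ligands at 0 in SK-UT-1B. Part of the 486 was thus fixed in advance, and nothing is read from its share. Reversals occurred only when a library was left out. The ranges were -0.85 to 0.88 for CXCL3, -0.01 to 2.59 for CXCL2, and -0.17 to 0.14 for CXCL8 after the combination in SK-LMS-1, and -0.94 to 0.78 for CXCL3, -0.62 to 0.40 for IL6, and -0.33 to 0.46 for CXCL12 between the DMSO sets. NFKBIA ranged from -0.02 to 0.68 after MK-0752 and from -0.09 to 0.26 after the combination, and RELA from -0.02 to 0.34 after the combination.

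Counts over all genes depended on the settings, and the cause was not tested. For the SK-UT-1B combination (118 called), they were 420 without a filter, 369 with DESeq2, 0 with only those libraries, and 328 to 1056 leaving out a library. For MK-0752 (53), they were 175, 131, and 99, 35 among genes with a mean of at least 50 counts, and 116 to 270. For the SK-LMS-1 combination (5), they were 73, 30, and 0, 1 at that mean, and 62 to 247. Between the DMSO sets (0), they were 76 without a filter, 30 with DESeq2, and 79 to 327. Between the drug effects (8), they were 89, 41, and 27, 3 at that mean, and 70 to 237. With a replicate block, the SK-LMS-1 combination gave 2, but same-numbered libraries did not deviate together (r = -0.007 over 21114 genes), so they share only a number.

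For the interleukin list after MK-0752 (1 called), the count was 2 without a filter, 2 with DESeq2, 2 with only those libraries, 0 at a mean of at least 50 counts, and 0 to 2 leaving out a library. For the same list between the drug effects it was 1 with only those libraries and 0 to 1 leaving out a library, and between the DMSO sets also 0 to 1. For the CXCR4 signaling list it was 0 to 1 leaving out a library after MK-0752, after the combination, and between the drug effects, and 1 in each such fit between the DMSO sets (0 with all libraries). Other chemokines numbered 2 between the untreated lines at a mean of at least 50 counts and 5 between the treated lines with DESeq2. ACKR3 had at most 37 counts in any library, and in the SK-UT-1B groups 32.2% and 33.5% of genes with 30 to 40 counts in 1 library had 0 in its partner.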
